A study of Mus musculus with 41 samples.

Results

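The immunity-related GTPases (IRGs) and guanylate-binding proteins (GBPs) are large GTPases that cells make in response to interferon, and 8 of their genes were followed through 13 RNA-seq libraries of mouse androgenetic haploid embryonic stem cells (AG-haESCs). The 8 genes were Irgm1, Irgm2, Igtp and Iigp1 of the IRG family and Gbp2, Gbp3, Gbp6 and Gbp7 of the GBP family, out of 24028 gene symbols listed. They were chosen by their FPKM values in these same libraries, compared between media, between lines and before and after a change of medium, so their values in those comparisons are given as a description with no test. AG-haESCs carry a single, sperm-derived genome. All lines were labelled as C57BL/6. The wild-type line 2i-14 was kept in 2i/L, a serum medium with LIF, a Mek inhibitor (PD0325901) and a Gsk3 inhibitor (CHIR99021), and gave libraries at passages (p) 18, 39 and 50. 2i-O48 lacks H19-DMR and IG-DMR, the differentially methylated regions of 2 paternally imprinted loci, and 2i-O48-TKO lacks these and the H19 gene; 1 library came from each of them in 2i/L. Cells of these 3 lines grown for 5 passages in SF/a2i/L, a serum-free medium in which a Src inhibitor (CGP77675) replaces the Mek inhibitor, gave 1 switched library each. The wild-type lines TSa2i-14 (p22, p47 and p54) and TSa2i-C57 (p9 and p58) were derived in serum with the Src and Gsk3 inhibitors and then kept in SF/a2i/L, a protocol named TSa2i/L. Libraries of 1 line are different passages of it, every line is a single derivation, and where nothing says that cultures were separate the spread between libraries may be technical.

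Interferons bind receptors at the cell surface, the receptor-bound Jak kinases phosphorylate Stat proteins, and Stat and Irf factors then bind elements in the promoters of interferon-inducible genes. Type I interferon acts largely through the interferon-stimulated response element (ISRE), and interferon gamma largely through the gamma-activated site (GAS). IRG and GBP proteins are best known for acting on the vacuoles in which intracellular parasites and bacteria live. Irgm1, Irgm2 and Igtp (also named Irgm3) are the regulatory IRGs, which sit on the cell's own membranes and hold the effector IRGs such as Iigp1 (Irga6) inactive. Pluripotent stem cells are known for a weak interferon response.

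The promoters of 6 members were read from RefSeq for interferon-response elements. Promoter letters did not enter the choice of the members. Both families are defined as interferon-inducible, however, so such elements could be expected, and the matches are given as a description. RefSeq gave windows of 300 bases (GRCm38.p6), from 250 bases before a transcript's start to 50 after it, for Irgm1, Irgm2, Igtp, Gbp2, Gbp3 and Gbp7. Iigp1 and Gbp6 had no entry in the table. The core of the ISRE was searched on both strands as GAAANNGAAA, and all 6 members held it, against 3.44% of 32851 windows and 3.99% of 27025 symbols in the table. The 100 bases before the start are printed below 5′ to 3′ on the coding strand, with every match in capitals. A match to the opposite strand reads as its complement.

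Irgm1: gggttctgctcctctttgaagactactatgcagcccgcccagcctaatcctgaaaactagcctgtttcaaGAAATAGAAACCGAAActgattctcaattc
Irgm2: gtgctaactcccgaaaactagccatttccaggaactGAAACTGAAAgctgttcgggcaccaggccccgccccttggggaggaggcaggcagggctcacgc
Igtp: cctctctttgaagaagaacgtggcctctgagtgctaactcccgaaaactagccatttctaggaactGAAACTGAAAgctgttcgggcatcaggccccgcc
Gbp2: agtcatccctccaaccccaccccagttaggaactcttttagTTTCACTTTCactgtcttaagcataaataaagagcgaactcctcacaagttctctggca
Gbp3: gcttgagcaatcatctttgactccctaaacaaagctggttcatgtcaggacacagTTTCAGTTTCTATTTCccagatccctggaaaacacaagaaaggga
Gbp7: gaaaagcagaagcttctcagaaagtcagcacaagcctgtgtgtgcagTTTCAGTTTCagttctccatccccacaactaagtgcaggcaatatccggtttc

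On GRCm38.p6 these stretches lie at chr11:48871421-48871520 (minus strand) for Irgm1, chr11:58214877-58214976 (plus strand) for Irgm2 and chr11:58199456-58199555 (plus strand) for Igtp. Those of Gbp2, Gbp3 and Gbp7 lie on the plus strand at chr3:142620563-142620662, chr3:142559944-142560043 and chr3:142530236-142530335. Every match began 24 to 64 bases before the start, on the coding strand in the 3 IRG genes and on the opposite strand in the 3 GBP genes. Irgm1 held 2 overlapping matches, which began 30 and 24 bases before the start, and Gbp3 held 2, which began 45 and 39 bases before it. Gbp3 has a second window in the table, and these letters were not in it. The core of the GAS, searched on both strands as TTCNNNGAA, was found in 3 of the 6 members, against 8.30% of all windows. It began 45 bases before the start in Igtp, 75 in Irgm2, and 106 and 87 in Gbp7, and it overlapped no ISRE match. The windows of Igtp and Irgm2, which are neighbouring genes, shared an identical run of 61 bases. The printed bases around their ISRE matches are also nearly the same, so the matches of these genes are not separate observations. A shorter run upstream of these matches also stands upstream of those in Irgm1. Gbp3 and Gbp7 share a short run across a match, and 4.79% of the 50-base runs of the Gbp3 transcript also occur in Gbp7. How many of the 6 promoters are separate observations was not tested. A match is a stretch of letters and not a measured binding site.

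**Figure D1:**
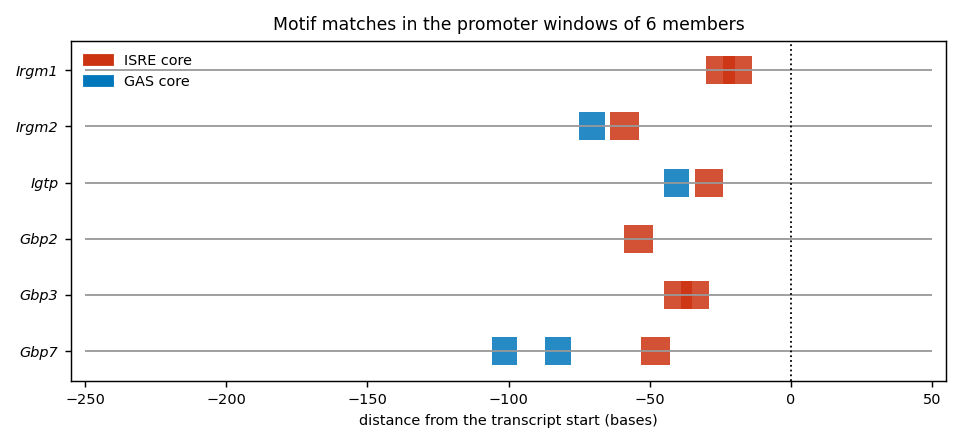
Matches to the ISRE core (red) and the GAS core (blue) in the promoter windows of 6 members, by distance from the transcript start in bases (0, dotted line); each grey line is a window of 300 bases and bar widths are to scale. Every ISRE match begins 24 to 64 bases before the start, and GAS matches stand further upstream in Irgm2, Igtp and Gbp7.

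Each library's values are FPKM, fragments scaled to transcript length and to the mapped total of the library, as the authors deposited them, so levels can be compared between genes per length. Depth was estimated at 12800000 to 19700000 fragments per library, and at these depths 3 fragments on a transcript of 1 kb correspond to 0.152 to 0.235 FPKM. These limits cover counting error only. All 8 embryonic stem cell markers examined, Pou5f1 and Nanog among them, were at 1 FPKM or more in at least 3 libraries. Their summed level was 16076 to 35286 FPKM, most of it from Dppa5a (14937 to 34460 FPKM). Pou5f1 was 59.6 to 168 FPKM and Sox2 10.7 to 24.4 FPKM. Of these 8, none was called between the media and only Nanog after the switch, where it was lower by a log2 difference of -0.93 ± 0.20 (SE; limma adjusted p = 0.0483), a call that was lost in 7 of 13 alternatives. Switched 2i-14 stood apart, because microRNA loci held 67.2% of its summed FPKM of 2146932, where the other 12 libraries summed to 651115 to 871848. Among these 12, microRNA loci held 23.2% of the sum in 2i-14 p18 and 1.06% or less in the rest. With microRNA loci left out of the sum and each library scaled to 1000000, Irgm1 was still 186 in switched 2i-14 and 1.87 in 2i-14 p50. In 2i-14 p18 it was 7.2 on that scale. Of 7 immune cell markers examined, Cd68 was the only 1 tested between the media. It was called higher in TSa2i/L by a log2 difference of 1.28 ± 0.34 (SE, limma adjusted p = 0.0452). That call was lost in 10 of 16 alternatives. Of the 15 fibroblast markers examined, 11, 13 and 9 were at 1 FPKM or more in 2i-14 p39, TSa2i-14 p54 and TSa2i-C57 p58, against 0 to 3 in the other 10 libraries. The authors state that their haploid cells were kept on feeder cells throughout, and that the feeders at derivation were mouse embryonic fibroblasts. Whether the marker RNA came from feeder cells was not tested.

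Irgm1 was the most abundant member in 8 of the libraries, Igtp being so in the other 5, and it reached the highest level of any. In 2i/L, 2i-14 had 4.82, 1.97 and 1.28 FPKM (p18, p39, p50), while 2i-O48 had 0.396 FPKM and 2i-O48-TKO had 0.616 FPKM. The switched libraries had 131 FPKM (2i-14), 41.0 FPKM (2i-O48) and 7.51 FPKM (2i-O48-TKO). Under TSa2i/L, TSa2i-14 had 90.8, 0.401 and 79.2 FPKM (p22, p47, p54) and TSa2i-C57 had 0.397 and 37.1 FPKM (p9, p58). All 3 switched libraries therefore lay above all 5 in 2i/L, whereas the TSa2i/L libraries spanned 229-fold and TSa2i-14 p47 and TSa2i-C57 p9 lay as low as 2i-O48. Irgm1 (NCBIM37, the build mm9, chromosome 11, 48675470 to 48685185, minus strand) shares no run of 50 bases with another gene's coding transcripts.

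Igtp moved the same way over a narrower range. Its levels in 2i/L were 2.92, 0.733 and 1.05 FPKM in 2i-14 (p18, p39, p50), while 2i-O48 had 0.547 FPKM and 2i-O48-TKO had 1.07 FPKM. The switched libraries had 20.5 FPKM (2i-14), 16.6 FPKM (2i-O48) and 9.48 FPKM (2i-O48-TKO). TSa2i-14 had 19.1, 1.54 and 18.5 FPKM (p22, p47, p54) and TSa2i-C57 had 2.30 and 10.7 FPKM (p9, p58). The 6 libraries above every 2i/L library were those that Irgm1 marked, and TSa2i-C57 p9 and TSa2i-14 p47 were within the range of 2i/L. The balance of these 2 regulatory IRGs was not constant, since the ratio of Irgm1 to Igtp in FPKM was 0.574 to 2.68 in 2i/L, 0.792 to 6.40 in the switched libraries and 0.173 to 4.76 in TSa2i/L. It was lowest in TSa2i-C57 p9 and TSa2i-14 p47 (0.261). Igtp lies on chromosome 11 (58013058 to 58021093, plus strand) and 10.1% of its 50-base runs also occur in Irgm2.

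Irgm2, the third regulatory IRG (chromosome 11, 58028530 to 58036282, plus strand), stayed near the detection limit in 2i/L, at 0.0205 to 0.102 FPKM or about 1 to 7 fragments. The switched libraries had 0.893 FPKM (2i-14), 0.705 FPKM (2i-O48) and 0.579 FPKM (2i-O48-TKO). TSa2i-14 had 1.49, 0.259 and 1.09 FPKM (p22, p47, p54) and TSa2i-C57 had 0.130 and 0.461 FPKM (p9, p58). Irgm2 was the 1 member of the 8 for which every TSa2i/L library lay above every 2i/L library, though TSa2i-C57 p9 did so by little. Of 10387 genes tested between 2i-14 in 2i/L and the TSa2i/L libraries, 11.8% were separated in this direction. Of the 50-base runs of Irgm2, 6.86% also occur in other genes and 5.84% in Igtp, which was more abundant in every library. How far the Irgm2 values hold reads of Igtp was not tested.

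Iigp1, the effector IRG (chromosome 18, 60535683 to 60552281, plus strand), was listed at 0 in all 5 libraries in 2i/L, where 3 fragments would give 0.0488 to 0.0710 FPKM. It was also at 0 in 5 of the other 8 libraries and at 0.0171 FPKM, about 1 fragment, in switched 2i-O48. It was detected beyond 3 fragments only in TSa2i-C57 p58 (0.292 FPKM, about 13.5 fragments) and TSa2i-14 p54 (0.253 FPKM, about 12.7 fragments). Those are the TSa2i/L libraries with the highest fibroblast marker levels, and the part of fibroblast RNA in this was not tested. In 2i-14 p39, the third library with such levels, Iigp1 was at 0. Switched 2i-14, with the highest Irgm1, had none detected.

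**Figure D2:**
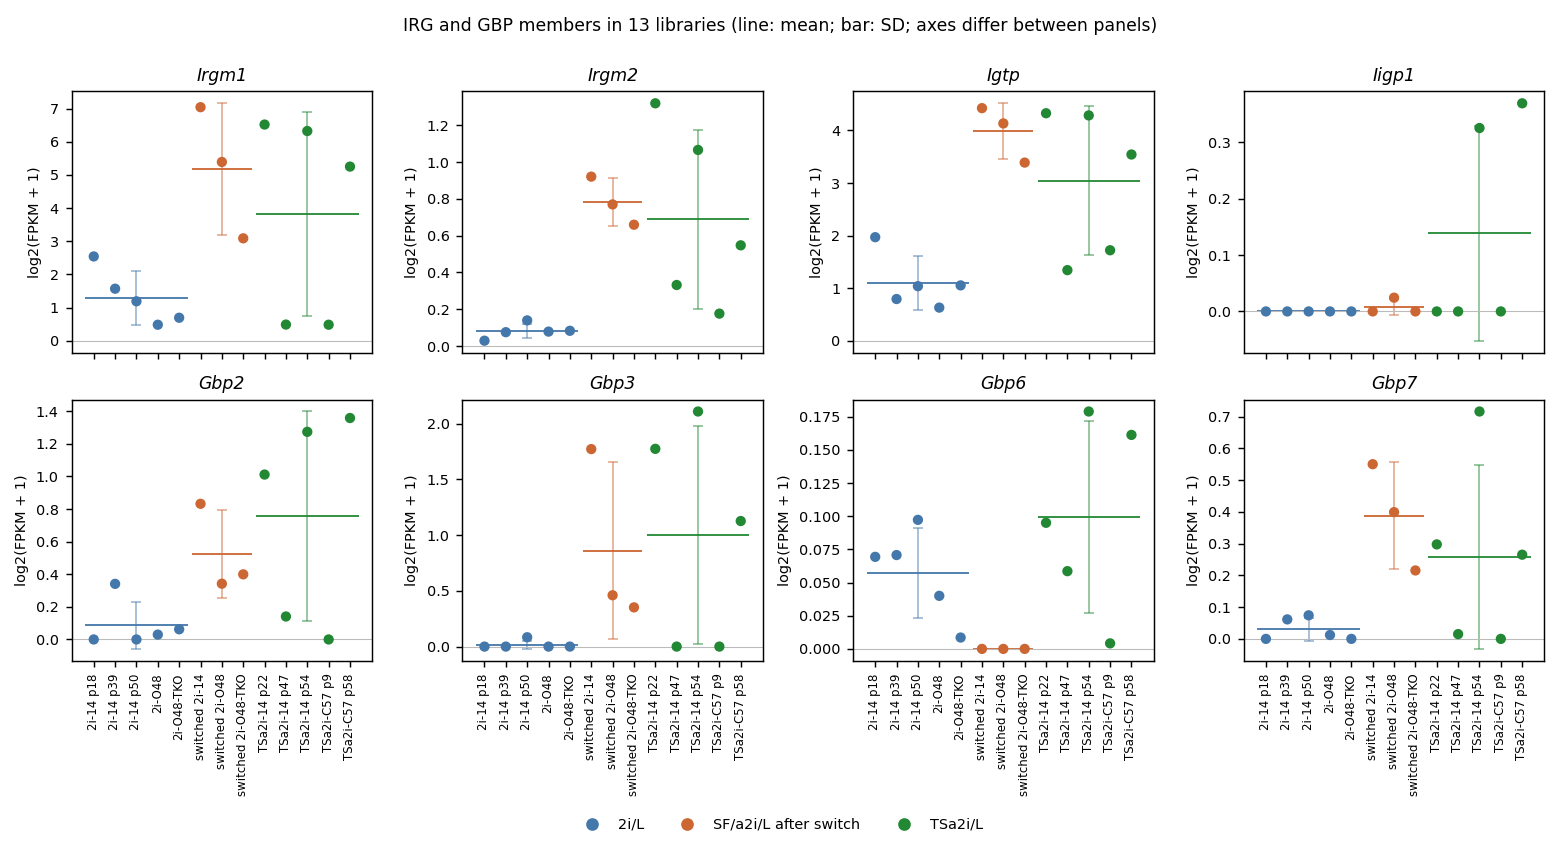
log2(FPKM + 1) of the 8 members in each of the 13 libraries; points are libraries coloured by medium, horizontal lines are means over the libraries of a medium and bars are SDs, and the vertical axes differ. The 3 switched libraries stand above 2i/L for 6 members, though for Gbp2 only just (0.268 FPKM in switched 2i-O48, 0.267 FPKM in 2i-14 p39). The share of all genes so separated was not computed. The members were chosen on these values, so nothing is read from their number. TSa2i-14 p47 and TSa2i-C57 p9 stand low among the TSa2i/L libraries, at 0.401 and 0.397 FPKM for Irgm1.

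Each GBP was lower than Irgm1 and Igtp in every library. Their summed level was 0.0493 to 0.360 FPKM in 2i/L, 0.756 to 3.66 in the switched libraries and 0.00289 to 5.51 in TSa2i/L. Gbp3 (chromosome 3, 142223016 to 142236173, plus strand) was listed at 0 in 4 of 5 libraries in 2i/L and at 0.0598 FPKM, about 3 fragments, in 2i-14 p50. The switched libraries had 2.41 FPKM (2i-14), 0.376 FPKM (2i-O48) and 0.276 FPKM (2i-O48-TKO). Under TSa2i/L, TSa2i-14 had 2.42, 0 and 3.31 FPKM (p22, p47, p54) and TSa2i-C57 had 0 and 1.18 FPKM (p9, p58). Gbp3 thus divided the TSa2i/L libraries as Irgm1 did.

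Gbp2 (chromosome 3, 142283566 to 142300972, plus strand), which carries a lipid anchor and is recruited to parasite vacuoles, was listed in 2i-14 at 0, 0.267 and 0 FPKM (p18, p39, p50), while 2i-O48 had 0.0209 FPKM and 2i-O48-TKO had 0.0441 FPKM. The switched libraries had 0.781 FPKM (2i-14), 0.268 FPKM (2i-O48) and 0.319 FPKM (2i-O48-TKO). TSa2i-14 had 1.02, 0.103 and 1.42 FPKM (p22, p47, p54) and TSa2i-C57 had 0 and 1.56 FPKM (p9, p58). 2i-14 p39 was the highest of the 2i/L libraries and level with switched 2i-O48, and it was also the 2i/L library with fibroblast RNA.

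Gbp7 (chromosome 3, 142193302 to 142213047, plus strand), likewise found on parasite vacuoles, was 0 to 0.0528 FPKM in 2i/L. The switched libraries had 0.464 FPKM (2i-14), 0.319 FPKM (2i-O48) and 0.161 FPKM (2i-O48-TKO). TSa2i-14 had 0.229, 0.0105 and 0.643 FPKM (p22, p47, p54) and TSa2i-C57 had 0 and 0.202 FPKM (p9, p58). The highest 2i/L library lay below the lowest switched one. Gbp6 (chromosome 5, 105699723 to 105722718, minus strand) behaved otherwise, at 0.00594 to 0.0698 FPKM in 2i/L, 0 in all 3 switched libraries and 0.00289 to 0.132 FPKM in TSa2i/L. None of its values exceeded about 9.18 fragments, and 76.2% of its 50-base runs also occur in Gbp10, so its reads could not be assigned with certainty.

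Within each line, 6 of the 8 members were higher 5 passages after the switch from 2i/L to SF/a2i/L, in all 3 pairs, where 2i-14 p50 stood for 2i-14 before the switch. Those were Irgm1, Irgm2, Igtp, Gbp2, Gbp3 and Gbp7. Of 9759 genes tested, 19.4% were higher in all 3 pairs, but the members were chosen on this comparison and nothing is read from their number. Irgm1 was 102-fold higher in 2i-14, 103-fold higher in 2i-O48 and 12.2-fold higher in 2i-O48-TKO. Igtp was 19.5-fold, 30.3-fold and 8.82-fold higher in the same order. With 1 pair per line there is no spread to set the folds of the lines against.

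The level of Irgm1 in 2i-14 before the switch differed between passages, and against p39 and p18 in place of p50 the fold was 66.6 and 27.2. For Igtp it was 28.0 and 7.02. For Gbp3, listed at 0 before the switch in the DMR-deleted lines, the switched level was at least 6.62-fold higher in 2i-O48 and at least 4.60-fold higher in 2i-O48-TKO, taking 3 fragments per library as the floor. On the same floor, Gbp2 was at least 12.6-fold higher in switched 2i-14 than in p50, where it was listed at 0, but 2.93-fold higher than in p39, where it was at 0.267 FPKM. On the log2(FPKM + 1) scale, which understates changes of low genes, the median difference of the 8 members was 0.59. It was -0.09 over all genes tested, which held only 2 of the members. Since the switch entered the choice of the members, nothing is read from these medians. The switched libraries carried little fibroblast RNA, with a summed level of the 15 markers of 3.14 to 4.14 FPKM, against 1.87 to 3.01 FPKM in their controls. Dcn, one of these markers, was 0.873 FPKM (2i-14), 0.0641 FPKM (2i-O48) and 0.176 FPKM (2i-O48-TKO) after the switch.

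**Figure D3:**
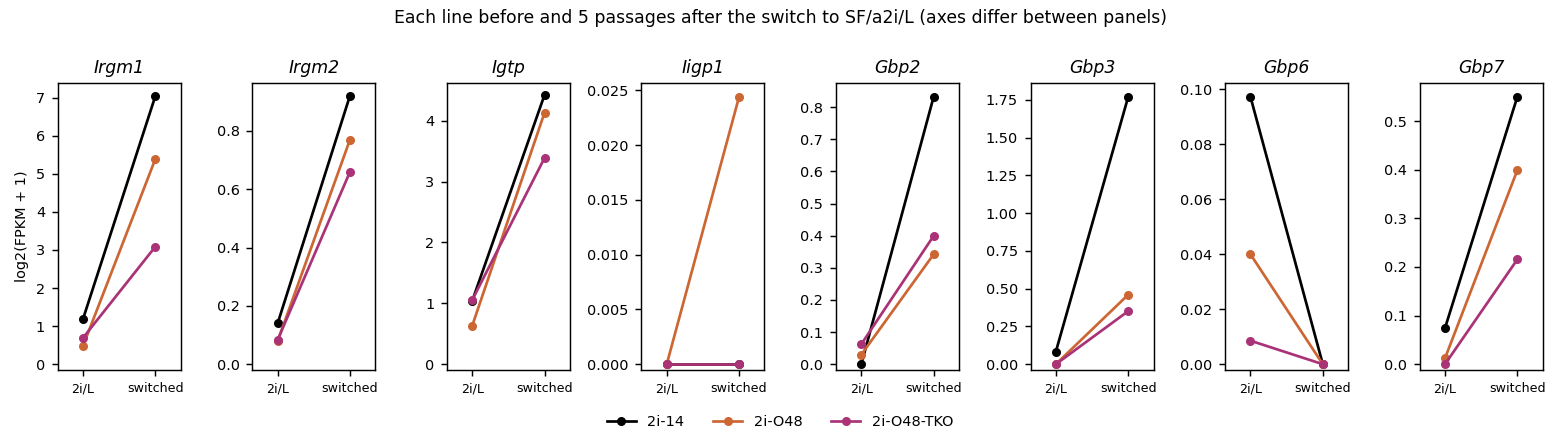
log2(FPKM + 1) of each member in each cell line in 2i/L (2i-14 at p50) and 5 passages after the switch; each line joins the 2 libraries of a cell line, and the vertical axes differ. 6 members are higher after the switch in every cell line, Gbp6 is at 0 in every switched library and Iigp1 stays below 3 fragments.

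Wild-type TSa2i/L libraries (n = 5) and 2i-14 in 2i/L (n = 3) overlapped for 7 of the 8 members, Irgm2 being the other. Irgm1 was 3.81 ± 3.08 (SD, n = 5) in TSa2i/L and 1.77 ± 0.70 (SD, n = 3) in 2i/L on the log2(FPKM + 1) scale, and Igtp was 3.04 ± 1.42 and 1.27 ± 0.62. The SD within TSa2i/L exceeded the difference between the media for Irgm1 (2.05), and for Igtp the difference was 1.78. Gbp3 differed by 0.97 and Gbp2 by 0.64. The median difference was 0.63 for the 8 members, of which 4 were among the genes tested, and 0.07 over all 10387 genes tested. The members were chosen on this comparison, so nothing is read from these medians. All 2i/L libraries here come from 1 line, so line and medium cannot be told apart in this comparison.

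Library by library, all 8 members exceeded every 2i/L library in TSa2i-C57 p58 and TSa2i-14 p54, and 6 did so in TSa2i-14 p22. In TSa2i-14 p47 and TSa2i-C57 p9 only Irgm2 did. Iigp1 and Gbp6 rested on about 7.58 to 13.5 fragments in TSa2i-C57 p58 and TSa2i-14 p54. The share of all genes above every 2i/L library was not computed for single libraries. The members were chosen on these values, so nothing is read from these counts. The mean log2(FPKM + 1) of the 15 fibroblast markers was 0.66, 0.42 and 2.62 in TSa2i-14 (p22, p47, p54) and 0.28 and 1.51 in TSa2i-C57 (p9, p58). The summed marker level was 4.26 to 153 FPKM in TSa2i/L and 1.87 to 78.4 FPKM in 2i/L. Of the defining markers, Postn was at 0 in TSa2i-14 p22, but Dcn, Lum and Col1a1 were at 3.55, 3.19 and 1.52 FPKM there. In 2i-14 p39, which is rich in fibroblast markers, Dcn, Lum and Col1a1 were at 3.76, 0 and 16.9 FPKM. Col3a1, Col6a1, Lum, Postn and Prrx1 were at 0 in both TSa2i-14 p47 and TSa2i-C57 p9. The Y-linked gene Eif2s3y was 0.166, 0 and 2.07 FPKM in TSa2i-14 (p22, p47, p54) and 0 and 1.22 FPKM in TSa2i-C57 (p9, p58). Whether the Eif2s3y RNA came from feeder cells was not tested either.

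Of the 3 TSa2i/L libraries with high members, TSa2i-14 p54 and TSa2i-C57 p58 were rich in fibroblast markers, while TSa2i-14 p22, with the highest summed member level of the TSa2i/L libraries (115 FPKM), had 3 of 15 markers at 1 FPKM or more. 2i-14 p39 had a marker mean of 2.05 and a summed member level of 3.11 FPKM, and the 3 switched libraries had marker means of 0.23 to 0.32 and summed member levels of 18.3 to 156 FPKM. Within the 3 libraries rich in fibroblast RNA, the TSa2i/L libraries were above 2i-14 p39 by 4.22 for Irgm1, 3.12 for Igtp, 1.62 for Gbp3 and 0.98 for Gbp2 on the log2(FPKM + 1) scale. Without those libraries the difference between the media was 0.63 for Irgm1 and 0.96 for Igtp, which leaves TSa2i-14 p22 as the 1 high TSa2i/L library of 3. Bulk libraries cannot tell fewer expressing cells from less RNA per cell.

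**Figure D4:**
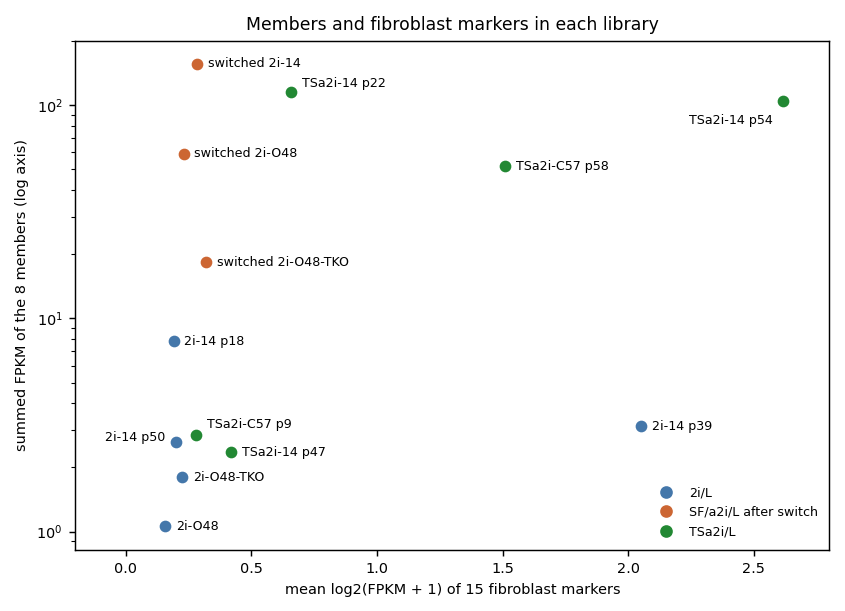
Summed FPKM of the 8 members (log axis) against the mean log2(FPKM + 1) of 15 fibroblast markers, 1 point per library, coloured by medium. The switched libraries are high in members (18.3 to 156 FPKM) at marker means of 0.23 to 0.32, whereas 2i-14 p39 is low (3.11 FPKM) at a marker mean of 2.05.

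Passage was compared with limma across all genes. Late passages (TSa2i-14 p47, TSa2i-14 p54 and TSa2i-C57 p58) did not differ detectably from early ones (TSa2i-14 p22 and TSa2i-C57 p9), where 0 of 10502 genes (0%) had an adjusted p under 0.05 and 928 had an unadjusted p under 0.05. None of the 5 members that passed the filter was among the latter. The log2 difference was 0.52 ± 2.03 (SE) for Irgm1 (limma adjusted p = 0.946) and 0.03 ± 0.96 (SE) for Igtp (limma adjusted p = 0.993). Gbp2, Gbp3 and Irgm2 gave 0.42, 0.19 and -0.10. Each group holds both high and low libraries. The lines entered the choice of the members, so between lines their values are a description. In TSa2i/L, Irgm1 was 2.87 ± 3.37 (SD, n = 2) in TSa2i-C57 and 4.44 ± 3.43 (SD, n = 3) in TSa2i-14 on the log2(FPKM + 1) scale, and the lines overlapped for all 8 members. Of 10502 genes, 0 were called between these lines by limma and 366 had an unadjusted p under 0.05.

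In 2i/L, Irgm1 was lower in both DMR-deleted libraries than in all 3 of 2i-14, at 0.59 ± 0.15 (SD, n = 2) against 1.77 ± 0.70 (SD, n = 3) on the log2(FPKM + 1) scale. Gbp6 was separated in the same way, at about 5.8 fragments or fewer. The share of all genes so separated was not computed, and nothing is read from the separation. Igtp overlapped between the genotypes, at 0.84 ± 0.30 (SD, n = 2) against 1.27 ± 0.62 (SD, n = 3). By another measure, among 10164 genes tested by limma, 0.0787% were called higher and 0.0394% lower in the deleted lines. The deleted lines differ from 2i-14 in derivation as well, so genotype and line cannot be told apart.

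The genes upstream of the members were examined by role. Of 11 interferon ligand genes searched, 9 were listed, none reached 1 FPKM in any library and 6 were at 0 in all 13, Ifng among them. Ifnb1 was listed above 0 in 1 library, 2i-14 p50, at 0.0971 FPKM. Receptor chains were present in all media, and all 5 that were listed reached 1 FPKM in at least 3 libraries. Ifnar1, a chain of the type I receptor, was 1.22 to 2.98 FPKM, and Ifngr1, a chain of the interferon gamma receptor, was 1.75 to 5.70 FPKM. None of these 5 chains and neither of 2 kinases tested was called between the media or after the switch, where limma called 5.72% of genes higher and 1.85% lower in TSa2i/L, and 2.22% higher and 4.66% lower after the switch.

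Of 9 transcription factors of the pathway, 6 were tested between the media with none called. Irf1, a factor through which interferon gamma induces IRGs and GBPs, was 5.48 to 15.0 FPKM over the 13 libraries and was not called in either comparison. Of 6 feedback inhibitors, 1 was higher and 1 lower after the switch. Usp18, which blocks the type I receptor, had a log2 difference of 4.88 ± 0.53 (SE; limma adjusted p = 0.0103), and Ptpn6, a phosphatase, of -1.24 ± 0.27 (SE; limma adjusted p = 0.0487). Both calls were lost with no filter on low FPKM and with the fibroblast mean as a covariate, and that of Ptpn6 in 8 of 13 alternatives in all.

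The relatives of the members were mostly silent. Among 13 other IRG family genes only Tgtp1 and Tgtp2, effector IRGs that are near-identical copies, reached 1 FPKM in any library. One or both exceeded every 2i/L library in switched 2i-14 (5.95 and 2.33 FPKM), TSa2i-14 p22 (4.39 and 2.12), TSa2i-14 p54 (0.00456 and 5.97) and TSa2i-C57 p58 (1.14 and 0.609). Both were at 0 in switched 2i-O48 and at 0.00531 and 0.0158 FPKM in switched 2i-O48-TKO, where Irgm1 and Igtp were above every 2i/L library. Of 8 other GBP family genes 6 were listed and none reached 1 FPKM in any library. Genes for the autophagy conjugation machinery, which loads IRG and GBP proteins on membranes, were expressed in full, with all 10 above 1 FPKM in at least 3 libraries. In TSa2i/L, Gabarapl1 was called higher by a log2 difference of 0.83 ± 0.20 (SE; limma adjusted p = 0.0327) and Gabarapl2 lower by -1.68 ± 0.20 (SE; limma adjusted p = 0.00088). The call of Gabarapl1 was lost in 10 of 16 alternatives and that of Gabarapl2 in none. After the switch Gabarapl2 and Map1lc3a were called lower, by -1.72 and -0.93. Both calls were lost with no filter on low FPKM and with the fibroblast covariate, and that of Map1lc3a in 6 of 13 alternatives in all.

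The genes whose pattern was most like that of the members were ranked by Pearson correlation with the mean of the standardized log2(FPKM + 1) of Irgm1, Igtp, Gbp2 and Gbp3, the members at 1 FPKM or more in at least 3 libraries. Among 10727 genes and over 13 libraries, the 10 highest were Irf7 (r = 0.980), Oasl1 (0.980), Oasl2 (0.979), Irf9 (0.974), Lgals9 (0.966), Trim30a (0.958), Psmb8 (0.956), Cmpk2 (0.948), Usp18 (0.945) and Rtp4 (0.943). The libraries are not independent, since several share a line. Irf7 and Irf9 are transcription factors of the type I response, Oasl1 and Oasl2 are relatives of the oligoadenylate synthetases, and Psmb8 is a subunit of the immunoproteasome. On the switch Rtp4 went from 2.26 to 109 FPKM in 2i-14, from 0.211 to 41.6 FPKM in 2i-O48 and from 0.594 to 12.6 FPKM in 2i-O48-TKO, where Irgm1 reached 131, 41.0 and 7.51 FPKM. Irf7 was at 0 in the same 3 controls and at 7.04, 3.90 and 0.972 FPKM after the switch. For the members outside the mean, r was 0.917 for Irgm2, 0.904 for Gbp7, 0.579 for Iigp1 and 0.414 for Gbp6. All members were chosen on values of these libraries, so nothing is read from these correlations. Irgm2 also shares 50-base runs with Igtp, and Gbp7 with Gbp3, which are in the mean. Of 8 neighbours in the promoter table, 2 (Lgals9 and Trim30a) held the ISRE core as searched.

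**Figure D5:**
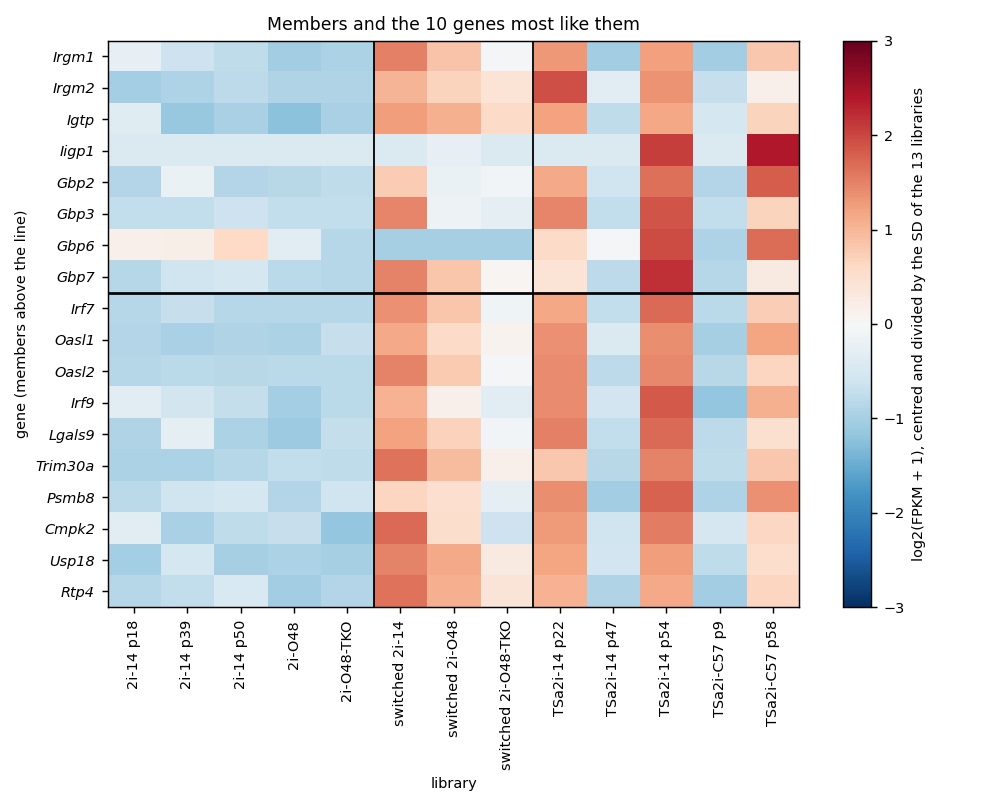
Members (above the line) and the 10 genes most like them (below) in the 13 libraries; colour is log2(FPKM + 1) centred and divided by the SD over the libraries, and vertical lines part 2i/L, the switched libraries and TSa2i/L. TSa2i-14 p47 and TSa2i-C57 p9 are low and switched 2i-14, TSa2i-14 p22 and TSa2i-14 p54 are high in nearly all rows, Iigp1 and Gbp6 departing from this.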

How the data were processed

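RNA-seq was analysed for 13 of the 41 samples of the series; the other samples, which measured methylation and chromatin, were not analysed here. The authors amplified cDNA from haploid cells, aligned reads to mm9 and deposited FPKM values without counts; the submitters' processing notes name TopHat2 2.0.11, Bowtie2 2.2.2 and Cufflinks 2.2.1. Which gene models Cufflinks used is not given in the sources used here. The members and gene lists were chosen with earlier results of these data known.

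Rows of 1 symbol were summed (24525 rows, 24028 symbols). Groups came from the sample labels. Lines were compared in the same way as passages, but since the members were chosen by line too, no test of a member between lines is given. Comparisons were fitted on log2(FPKM + 1) in R 4.3.3 (limma 3.58.1, trended variance, Benjamini-Hochberg threshold 0.05) to genes that reached 1 FPKM in at least the number of libraries of the smaller group. The switch fit had the cell line as a block, named in the labels. Depth, and so fragments per gene, was estimated from the smallest FPKM values of 3737 genes longer than 1500 bp. Gene positions are from GENCODE vM1 (NCBIM37) and promoters from RefSeq (GRCm38.p6). All 8 members, list genes that passed a test and the 10 closest pattern neighbours were named; Tgtp1, Tgtp2, Irf1, Ifnb1, Ifnar1, Ifngr1, Irf7, Rtp4 and single markers were given values after these had been seen. The result of 1 list gene after the switch is not reported here. Alternatives covered the pseudocount, filter, scaling, repeated symbols, fibroblast covariate, block, controls and single libraries. The tests were checked on simulated data. Python 3.11.15, pandas 2.3.3 and matplotlib 3.10.9 were used.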

Additional observations from a re-analysis of the deposited data

Results flagged for a closer look

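The change with passage ran in opposite directions in the 2 TSa2i/L lines for the 3 regulatory IRGs, and this difference was not tested. For Irgm1 the late-minus-early log2(FPKM + 1) difference was -3.12 in TSa2i-14 (mean of p47 and p54 against p22, of which p54 alone was -0.20) and 4.77 in TSa2i-C57 (p58 against p9). It was -1.51 and 1.82 for Igtp, and -0.62 and 0.37 for Irgm2, in the same order. Within TSa2i-14, p54 lay close to p22 for all 3 genes and p47 lay far below both.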

How the results depend on the processing

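Groups are small, so 1 low or high library can shift a difference, and for passage and between lines it reversed the sign for some members. Alternatives were run for members that passed the filter on low FPKM. Between the media Irgm1 (0.63 to 4.22) and Igtp (0.96 to 3.12) had values in 17 alternatives, all positive. Gbp2 (0.53 to 1.87) and Gbp3 (0.84 to 2.46) had values in only 12, also positive. They dropped out without TSa2i-14 p22, TSa2i-14 p54 or TSa2i-C57 p58, the libraries where they were high. They also dropped out at a mean of 5 FPKM and without the 3 libraries rich in fibroblast RNA. The members were chosen on this comparison, so these signs are a description. After the switch the members that passed the filter were Irgm1, at 3.65 to 16.5, and Igtp, at 2.77 to 8.12. The highest values came with the fibroblast covariate, which leaves 1 residual degree of freedom. No member was called for passage under any alternative.

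Between the media 786 genes were called, 374 with no filter, 458 at a mean of 5 FPKM and 229 without the 3 libraries rich in fibroblast RNA. Without single libraries the count was 383 (2i-14 p39) to 846 (TSa2i-14 p22), with 440 without TSa2i-14 p47, 454 without 2i-14 p50 and 508 without 2i-14 p18. After the switch 672 were called, 778 with no replicate block, 369 at a mean of 5 FPKM, 0 with no filter and 0 with the fibroblast covariate, 1483 with 2i-14 p18 and 1522 with 2i-14 p39 as the control. Without 1 line the count was 311 (2i-O48-TKO), 1031 (2i-14) or 1461 (2i-O48). For passage, leaving out single libraries gave 0 to 8 genes (8 without TSa2i-14 p47). For line it gave 0 to 9 (9 without TSa2i-14 p54), and the fibroblast covariate gave 18. For deletion 12 genes became 0 with no filter and 0 (without 2i-O48-TKO) to 20 (without 2i-14 p50), with 3 without 2i-O48. The cause was not tested.

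Differences of members with passage and between lines changed sign. With the fibroblast covariate the passage difference was -2.66 for Irgm1, -1.53 for Igtp, -0.18 for Gbp2 and -0.92 for Gbp3, and the line difference of Gbp2 was 0.046. For passage, Igtp was -0.089 with median centring, -0.070 after quantile normalization and -0.084 with a replicate block on the line, and Irgm2 was 0.038 with a pseudocount of 0.1. Without single libraries the passage difference spanned -2.50 to 3.54 for Irgm1, -0.67 to 0.47 for Irgm2, -1.27 to 1.34 for Igtp, -0.087 to 0.92 for Gbp2 and -0.70 to 1.08 for Gbp3, with the lowest without TSa2i-C57 p9 and the highest without TSa2i-14 p22. The line difference spanned -3.96 to 0.81 for Irgm1, -1.68 to 0.22 for Igtp and -0.81 to 0.55 for Gbp2, the highest without TSa2i-C57 p9. Of the 10 pattern neighbours, 4 were among the top 10 by Spearman correlation.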
